A study of Homo sapiens with 8 samples.

Results

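The replication-dependent histone genes described here are 58 protein-coding genes of the histone clusters at 6p22 and 1q21, of 19974 protein-coding genes on chromosomes 1 to 22 and X. They were chosen by gene symbol, and all 58 were found in the RefSeq table of assembly GRCh38.p14. They comprise 6 linker histone H1 genes, 14 H2A, 17 H2B, 10 H3 and 11 H4 genes. ATAC-seq, which maps open chromatin by the sites where a transposase can insert sequencing adapters, was run on U2OS, an established human osteosarcoma cell line. Cells received a control siRNA (siGl3) or an siRNA against Orc6 (siOrc6), a subunit of the complex that marks replication origins, for 72 h. All groups, controls included, were synchronised by a double-thymidine block and collected in early S phase, 3 h after release, either untreated or after 30 min in 5 mM H2O2. Of the 8 libraries, 2 belonged to each of the 4 conditions, 1 from batch 1 and 1 from batch 2, and the labels do not say whether they came from separate cultures.

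Each condition has 1 deposited list of accessible regions (peaks) whose name carries both replicate numbers, so the spread between libraries cannot be given and no test over libraries was possible. The lists hold between 97816 and 115292 peaks, and their read depth is unknown. In addition, 4 lists give, as positions alone, the authors' calls of regions that were higher or lower after Orc6 depletion, 1 pair of lists for untreated cells and 1 for cells in H2O2. Comparisons below are therefore descriptions of these lists, set beside the same measure over all genes or all regions. In pooled bulk lists, fewer cells with an open site and less signal per cell cannot be told apart. Of 7 osteoblast lineage genes, 6 had a peak in all 4 lists, and TWIST1 had none. Marker genes of epithelium (4 of 4), neurons (4 of 4) and blood (3 of 4) had them too, so peaks anywhere in a gene did not separate cell types.

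Replication-dependent histones package newly made DNA, and cells make them in bulk during S phase. Their genes are short, lack introns in their main form and end in a stem-loop in place of a poly(A) tail. They sit in clusters and are transcribed in a nuclear body organised around NPAT, a coactivator that responds to the S-phase kinase CDK2. Several types have a promoter element of their own beside the general TATA and CCAAT boxes: the octamer bound by POU2F1 (Oct-1) in H2B genes, the AC box in H1 genes and an element bound by HINFP in H4 genes. H2A, H2B, H3 and H4 form the nucleosome core, and H1 binds the linker DNA between nucleosomes.

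The promoters below show how alike the members' start regions are in their letters whether or not a peak was found there. For each type the first is a gene at a region listed as higher in untreated siOrc6 cells, and the second is the gene of that type with a peak in the fewest lists, here none. Sequences are from RefSeq (GRCh38.p14), 5′ to 3′ on the strand of the gene, with 250 bases before the start and 50 after it. Capitals mark the 5 motifs searched on both strands: the TATA box TATAAA, the CCAAT box as CCAAT, the octamer as ATTTGCAT, the AC box as AAACACA, and the core of the H4 element as GGTCCG. No motif contains another, but TATA matches on opposite strands can overlap, as in H2BC12. By strongest peak, H2AC12 came before H2AC6 and is named only.
H1-1, chr6:26017738-26018037, minus strand: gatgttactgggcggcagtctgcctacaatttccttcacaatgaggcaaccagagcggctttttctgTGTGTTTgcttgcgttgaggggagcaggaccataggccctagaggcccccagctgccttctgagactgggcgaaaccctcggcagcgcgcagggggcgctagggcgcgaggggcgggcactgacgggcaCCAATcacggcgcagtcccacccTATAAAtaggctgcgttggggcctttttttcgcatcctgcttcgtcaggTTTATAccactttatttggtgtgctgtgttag
H1-6, chr6:26108086-26108385, minus strand: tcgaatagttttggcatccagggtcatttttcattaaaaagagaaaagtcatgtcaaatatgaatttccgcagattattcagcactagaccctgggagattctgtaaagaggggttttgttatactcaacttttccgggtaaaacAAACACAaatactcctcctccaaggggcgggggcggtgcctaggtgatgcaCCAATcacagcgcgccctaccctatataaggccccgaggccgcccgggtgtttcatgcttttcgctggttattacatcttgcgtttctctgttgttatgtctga
H2AC6, chr6:26123922-26124221, plus strand: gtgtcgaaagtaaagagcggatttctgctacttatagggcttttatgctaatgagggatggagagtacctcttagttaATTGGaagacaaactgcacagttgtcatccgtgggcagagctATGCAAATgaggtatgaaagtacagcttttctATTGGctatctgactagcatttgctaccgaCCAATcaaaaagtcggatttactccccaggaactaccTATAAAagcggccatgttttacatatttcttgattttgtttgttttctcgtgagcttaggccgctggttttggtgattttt
H2AC8, chr6:26216671-26216970, plus strand: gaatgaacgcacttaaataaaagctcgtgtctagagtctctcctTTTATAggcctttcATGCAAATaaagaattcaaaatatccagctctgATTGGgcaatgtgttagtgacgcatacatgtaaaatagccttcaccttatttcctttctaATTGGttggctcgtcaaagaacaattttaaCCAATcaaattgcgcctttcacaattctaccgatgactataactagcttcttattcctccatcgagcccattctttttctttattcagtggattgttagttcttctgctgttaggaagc
H2BC12, chr6:27146809-27147108, minus strand: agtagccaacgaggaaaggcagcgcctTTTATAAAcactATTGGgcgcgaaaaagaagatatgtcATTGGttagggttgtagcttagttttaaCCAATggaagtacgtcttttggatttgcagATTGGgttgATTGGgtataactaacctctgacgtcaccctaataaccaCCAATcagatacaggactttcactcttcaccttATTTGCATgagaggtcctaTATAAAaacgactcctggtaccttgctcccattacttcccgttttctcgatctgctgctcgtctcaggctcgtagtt
H2BC1, chr6:25726527-25726826, plus strand: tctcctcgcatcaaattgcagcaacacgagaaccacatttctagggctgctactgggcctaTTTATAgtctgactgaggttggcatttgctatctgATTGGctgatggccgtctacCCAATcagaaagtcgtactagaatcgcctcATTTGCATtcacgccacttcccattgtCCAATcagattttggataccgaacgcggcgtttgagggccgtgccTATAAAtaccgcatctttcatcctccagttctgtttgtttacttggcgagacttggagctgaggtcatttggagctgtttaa
H3C4, chr6:26197237-26197536, minus strand: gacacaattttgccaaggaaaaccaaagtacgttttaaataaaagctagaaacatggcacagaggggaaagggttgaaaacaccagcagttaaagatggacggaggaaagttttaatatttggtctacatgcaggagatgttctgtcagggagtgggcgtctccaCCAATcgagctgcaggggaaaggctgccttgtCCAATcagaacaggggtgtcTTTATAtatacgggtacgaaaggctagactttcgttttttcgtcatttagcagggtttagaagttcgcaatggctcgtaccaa
H3C3, chr6:26045134-26045433, plus strand: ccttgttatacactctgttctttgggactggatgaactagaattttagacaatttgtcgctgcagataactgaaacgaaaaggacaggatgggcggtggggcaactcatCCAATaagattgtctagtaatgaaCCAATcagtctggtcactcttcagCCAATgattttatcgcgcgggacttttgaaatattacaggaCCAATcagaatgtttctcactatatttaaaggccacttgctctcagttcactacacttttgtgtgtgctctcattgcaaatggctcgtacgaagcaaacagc
H4C9, chr6:27139032-27139331, plus strand: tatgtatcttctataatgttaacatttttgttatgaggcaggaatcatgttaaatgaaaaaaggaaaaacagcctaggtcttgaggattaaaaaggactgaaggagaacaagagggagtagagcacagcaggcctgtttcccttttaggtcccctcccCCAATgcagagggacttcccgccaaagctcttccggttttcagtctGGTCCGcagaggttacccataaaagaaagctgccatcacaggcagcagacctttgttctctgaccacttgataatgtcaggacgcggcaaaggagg
H4C4, chr6:26189063-26189362, minus strand: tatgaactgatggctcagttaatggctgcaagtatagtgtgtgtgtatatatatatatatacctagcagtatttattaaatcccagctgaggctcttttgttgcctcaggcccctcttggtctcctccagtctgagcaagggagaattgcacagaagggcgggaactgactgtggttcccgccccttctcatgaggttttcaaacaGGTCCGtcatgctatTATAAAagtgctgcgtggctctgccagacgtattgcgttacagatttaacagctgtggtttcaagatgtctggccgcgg

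A peak in the gene or within 1 kb of it was listed in all 4 conditions at 35 of the 58 members (60.3%), against 79.0% of all protein-coding genes. A further 21 members (36.2%) had no peak in any list, against 17.1% of all genes, and 2 had a peak in some lists only. Gene length bears on this comparison, because a window over a long gene takes in more peaks. Among genes of at most 1000 bp, 28 of 51 members (54.9%) had a peak in all 4 lists, while 97 of 524 protein-coding genes of that length did (18.5%), members included. Histone genes thus had peaks more often than genes of their size and less often than genes at large.

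**Figure D1:**
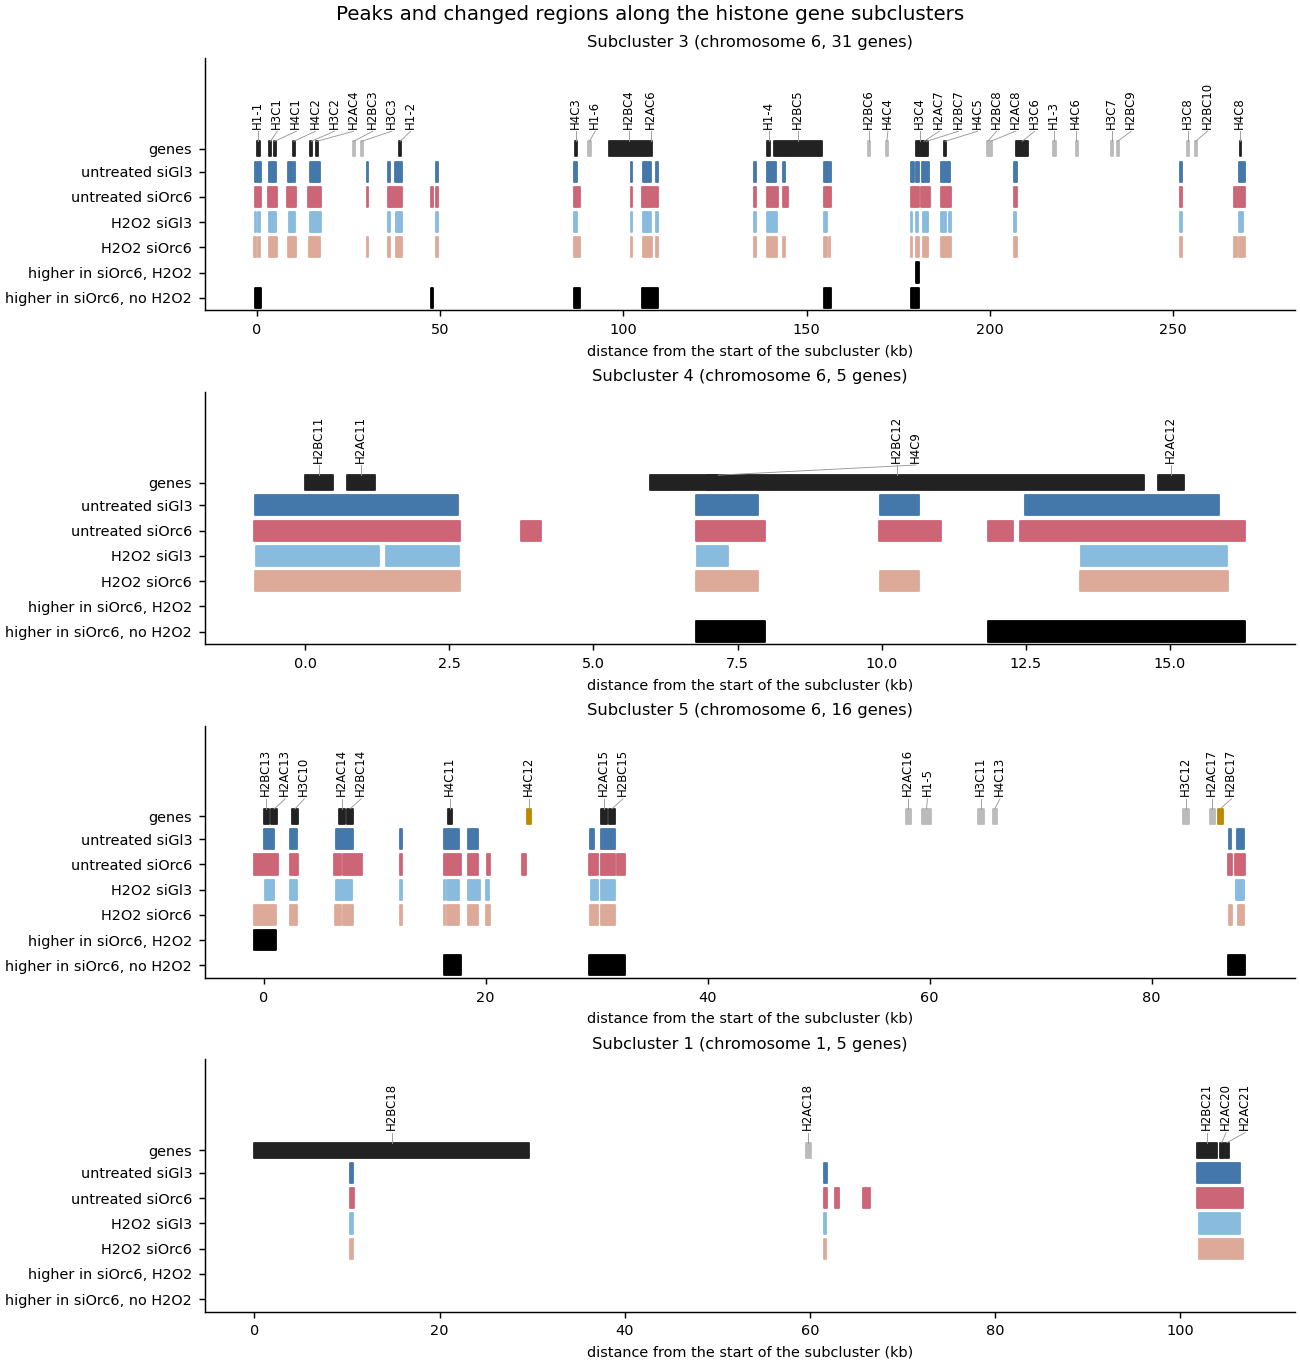
Peaks (coloured bars, 1 row for each condition) and regions called higher in siOrc6 (black bars) along 4 subclusters, with distance in kb from the first gene on the x axis. In the gene row black marks genes with a peak in all 4 lists, ochre those with a peak in some lists and grey those with none, and the narrowest features are drawn slightly wider than scale. Subclusters 3 and 5 each hold a run of 6 neighbouring grey genes.

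By type, a peak in all 4 lists was found at 10 of 14 H2A genes, 10 of 17 H2B genes, 7 of 11 H4 genes, 5 of 10 H3 genes and 3 of 6 H1 genes. By position the members fall into 5 subclusters, numbered along chromosome 1 and then chromosome 6 and separated by more than 200 kb. Subcluster 1 on chromosome 1 (5 genes over 105 kb) had peaks at 4 genes, and subcluster 2 is H2BC1 alone, with none. In subcluster 3 (31 genes over 269 kb) 18 genes had peaks in all 4 lists, in subcluster 4 (5 genes over 15.2 kb) all 5 did, and in subcluster 5 (16 genes over 86.4 kb) 8 did. Subclusters 3 and 5 each held genes of the same type with and without peaks, as the map of peaks along the subclusters shows.

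The strongest peaks stood at paired or grouped genes. Each peak carries a signal from the authors' caller, used here only as its percentile among the peaks of its own list. H2BC21, H2AC20 and H2AC21 on chromosome 1 shared a single region (chr1:149884522-149889480) whose peak stood at percentile 99.9 in each of the 4 lists. It was 4596 bp long in untreated siGl3, 4921 bp in untreated siOrc6, 4410 bp in H2O2 siGl3 and 4778 bp in H2O2 siOrc6. These genes encode 2 H2A proteins and an H2B protein, and H2BC21 has a spliced, polyadenylated form as well. A near match was the region of H2BC11 and H2AC11 in subcluster 4 (chr6:27131437-27135010), with percentiles of 99.9, 99.9, 99.4 and 99.8 in the same order. Next came H2BC12 and H2AC12, whose shared peak was 3374 bp, 3905 bp, 2527 bp and 2577 bp long in that order and stood at percentiles between 98.6 and 99.7. Signal rises with width in these lists (Spearman's rho across peaks of a list 0.842 to 0.882, peaks not being independent), so a high percentile and a long peak are not separate findings.

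**Figure D2:**
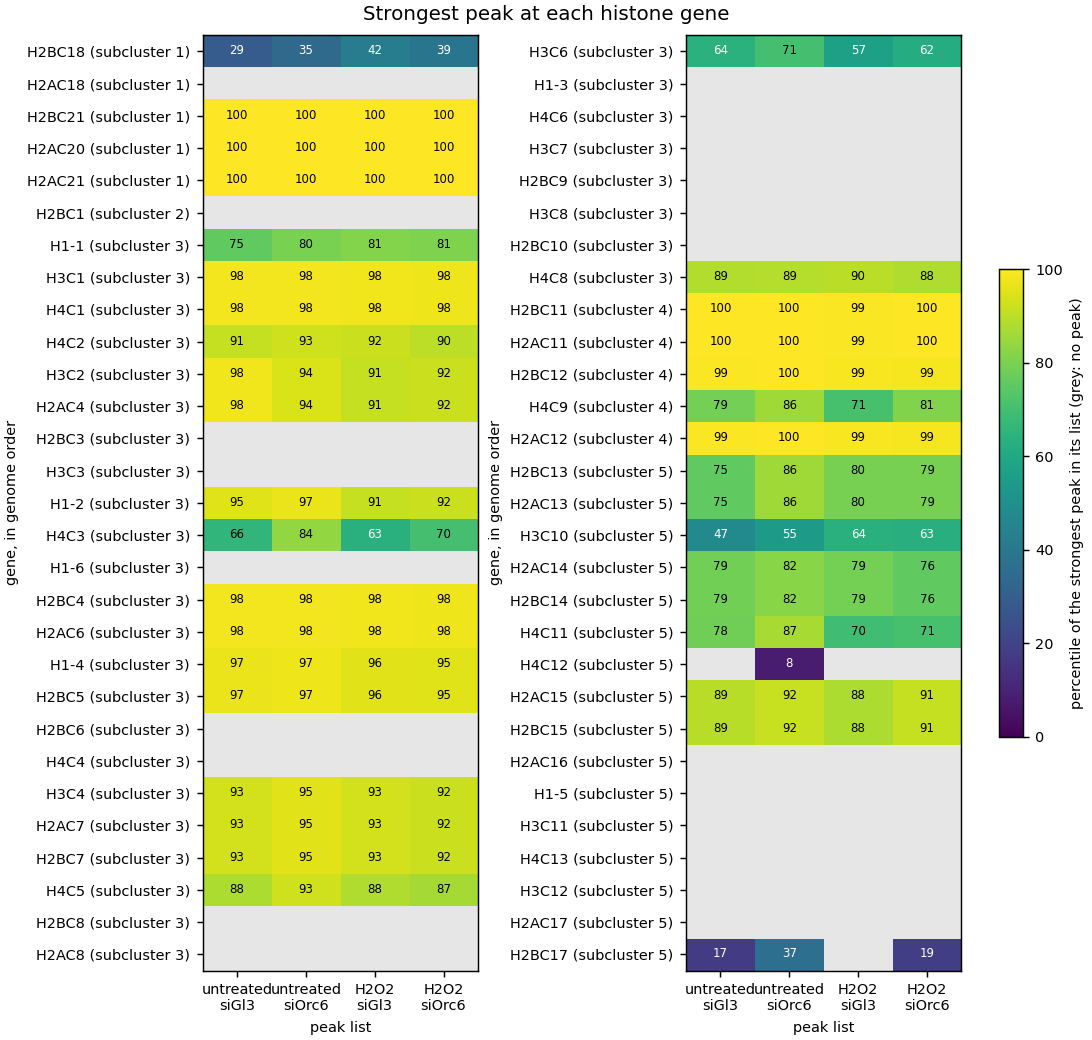
Percentile of the strongest peak within its own list (colour and number) for each of the 58 genes in genome order (rows) in each of the 4 lists (columns); grey cells have no peak. Genes with peaks mostly stand above percentile 60 in every list, and grey rows run through all 4 lists except at H4C12 and H2BC17.

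Over the members with a peak, the median percentile of the strongest peak was 93.2 in untreated siGl3, 94.3 in untreated siOrc6, 91.4 in H2O2 siGl3 and 92.0 in H2O2 siOrc6. Over all protein-coding genes with a peak it was between 89.2 and 89.7. A peak shared by several genes counts once for each of them, and 25 members lay at 14 regions shared with another member. The median over separate peaks was not computed, so these medians do not show that members have stronger peaks than other genes. The lowest among members in all 4 lists was H2BC18, at percentiles 29.2, 34.7, 42.0 and 38.7 in that order. Its only peak (chr1:149792974-149793420) lies inside a long annotated span of 29682 bp, and no peak lay over its promoter. In subcluster 3 the highest mean percentile was that of H2BC4 and H2AC6 (98.0) and the lowest with a peak that of H3C6 (63.3). In subcluster 4 H2BC11 and H2AC11 were highest (99.8) and H4C9 lowest (79.3), and in subcluster 5 H2AC15 and H2BC15 were highest (89.9). Members of 1 subcluster thus differed widely in the standing of their peaks.

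H2A and H2B genes often stand head to head, so that 1 interval holds both starts. There are 9 such pairs among the members with a promoter entry, with starts 194 to 248 bp apart. In 7 pairs both genes had peaks in all 4 lists, and in H2BC8/H2AC8 neither had any. In H2AC17/H2BC17 only H2BC17 had a peak, in 3 of the 4 lists. The H2BC17 peak (chr6:27894383-27894750) begins past the gene and not between the 2 starts. Joining overlapping peaks of the 4 lists gave 43 merged regions at members, and 14 of these were shared by 2 or 3 members. Of the shared regions, 10 were over 2 kb wide (2131 to 4959 bp) and took in 22 members, and 7 of them held an H2A and an H2B gene. The other 3 joined different partners: H3C1 with H4C1, H3C2 with H2AC4, and H1-4 with H2BC5.

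Among the linker histone genes, H1-1, H1-2 and H1-4 had peaks in all 4 lists. H1-3, H1-5 and H1-6 had none, the last of these being a testis histone. H1-2 had the most variable length: its region was under peaks for 1936 bp in untreated siGl3, 3183 bp in untreated siOrc6, 1706 bp in H2O2 siGl3 and 1704 bp in H2O2 siOrc6. Untreated siOrc6 stood apart there from the other 3 lists, but its extra length lay beyond 1 kb from the gene. Within the gene and 1 kb on each side the lengths were 1877 bp, 1878 bp, 1706 bp and 1704 bp in that order. H1-4 stood at percentiles 97.1, 97.5, 95.6 and 95.0 in that order through the region it shares with H2BC5. H1-1 had 2 separate regions, and its stronger peak stood at 75.5, 79.9, 81.4 and 80.8.

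Among the H3 genes, H3C1, H3C2, H3C4, H3C6 and H3C10 had peaks in all 4 lists, and H3C3, H3C7, H3C8, H3C11 and H3C12 had none. H3C10 was at percentiles 47.3, 54.6, 63.6 and 62.8 and H3C6 at 63.8, 70.5, 56.8 and 62.1, well below H3C1, which stood between 97.5 and 98.2. Among the H4 genes, H4C1, H4C2, H4C3, H4C5, H4C8, H4C9 and H4C11 had peaks in all 4 lists, and H4C4, H4C6 and H4C13 had none. H4C12 had a single peak of 416 bp in untreated siOrc6, at percentile 8.08 of that list. Since H3 and H4 protein sequences are nearly the same from gene to gene, these peaks locate which copies lie in listed open chromatin, not which proteins are made.

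Genes without peaks came in runs. H1-3, H4C6, H3C7, H2BC9, H3C8 and H2BC10 follow each other over 39.2 kb of subcluster 3, and H2AC16, H1-5, H3C11, H4C13, H3C12 and H2AC17 over 27.9 kb of subcluster 5. The longest stretch without a peak in any list that held several members ran for 54.3 kb from H2AC16 to H2BC17, and a stretch of 44.5 kb held H1-3, H4C6, H3C7 and H2BC9. The distance from these genes to the nearest peak of any list was largest for H1-5 (26.7 kb) and H2AC16 (25.3 kb), and smallest for H3C3 (1.13 kb) and H2AC17 (1.2 kb). The remaining members without a peak were H2AC18, H2BC1, H2BC3, H3C3, H1-6, H2BC6, H4C4, H2BC8 and H2AC8. H2BC1, a testis H2B gene, lay 5.995 kb from the nearest peak. The peak numbering in the deposited lists runs without gaps, so no peak was dropped from within a list after its final numbering. Reads or peaks left out before that numbering, or peaks cut from the end of a list, would leave no gap. The numbering thus does not show that the stretches lack open sites.

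RefSeq promoters of 300 bases were matched for 53 members, all but H4C1, H4C3, H3C11, H3C12 and H2AC12. A peak lay over the promoter in all 4 lists at 31 of these (58.5%), against 61.2% of 15812 promoters of protein-coding genes. The gap to other genes seen over whole gene windows was thus small over promoters alone. Where a peak covered the start, its summit lay a median of 102 bp before the start in untreated siGl3 (median position -102 bp, 31 members) and at -97 bp, -102 bp and -96 bp in the other lists. Most outliers were shared regions whose summit lay nearer the partner gene, as for H3C1 (1049 bp after its start in untreated siGl3), H2AC21 (1168 bp) and H2AC4 (1426 bp).

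**Figure D3:**
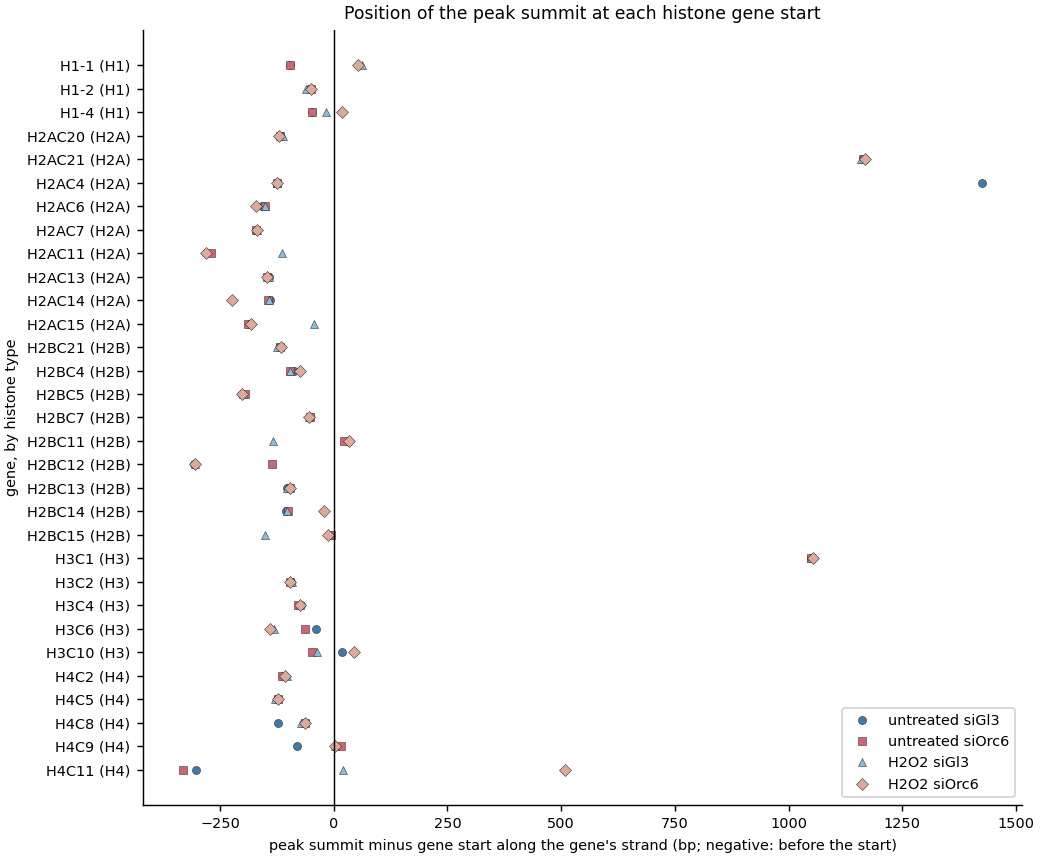
Position of the peak summit relative to the gene start, along the strand of the gene, in bp (x axis) for the 31 members whose promoter lies under a peak in all 4 lists (y axis, by type); symbols and colours mark the 4 lists. Most summits lie within 300 bp before the start, with medians between -102 and -96 bp, and those of H2AC21, H3C1 and, in untreated siGl3, H2AC4 lie over 1000 bp after it.

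The letters of the promoters followed histone type. AAACACA was found in 6 of 6 H1 promoters and in 1 H2A promoter, against 5.64% of all 35116 promoters in the table. GGTCCG was found in 9 of 9 H4 promoters and in 1 each of H2A, H2B and H3, against 11.3% of all. ATTTGCAT was found in 14 of 17 H2B promoters and 10 of 13 H2A promoters and in none of the other types, against 1.77% of all. Of these 10 H2A promoters, 7 belong to head-to-head pairs, and in all 7 the match lies on the same bases as that of the H2B partner. CCAAT was present in 47 of 53 (88.7%, against 34.6%) and TATAAA in 36 of 53 (67.9%, against 11.5%). These matches describe the letters only.

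The motifs were found in members with and without peaks. TATAAA was in 71.9% of the 32 promoters of members with a peak in all 4 lists and in 57.9% of the 19 of members with none. CCAAT was in 87.5% and 94.7%, ATTTGCAT in 43.8% and 47.4%, and GC content had medians of 42.8% and 42.0% in the same order. All promoters of protein-coding genes had a median GC content of 62.7%, so histone promoters with and without peaks alike were poorer in G and C. Near-identical copies could share reads, and the sources used here do not say how such reads were handled. Stretches of 36 bases that recur in another RefSeq promoter were found in 7 members: H2AC18 (99.6% of its stretches), H4C11, H4C12, H2BC13, H2AC13, H2AC14 and H2BC14. Of the 19 members without peaks only H2AC18 had any, and 5 of the 32 with peaks in all 4 lists did. The values of these 7 genes are uncertain for that reason.

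In untreated cells 13 members (22.4%) lay at a region that the authors listed as higher in siOrc6 than in siGl3, against 15.3% of all protein-coding genes. None lay at a region listed as lower, against 10.3%. Among genes of at most 1000 bp, 9 of 51 members (17.6%) lay at a higher region, and 12 of all 524 genes of that length (2.29%) did, members included. At a lower region lay only 1 of these 524 genes (0.191%), but 404 of them (77.1%) had no peak in any list. Among genes with a peak in all 4 lists, none of the 35 members and 12.7% of all such genes lay at a lower region. The first comparison is not matched for peaks and the second not for gene length. Whether the absence of lower regions sets the members apart therefore cannot be said. The 13 members at a higher region were 5 H2B, 3 H2A, 3 H4, 1 H3 and 1 H1 gene, so every type was represented. They lay in subclusters 3 (6 members), 4 (3) and 5 (4), and none in subcluster 1. The sources used here do not give the authors' threshold.

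The 10 regions behind these calls were 1203 to 4463 bp wide, with a median of 1838 bp, against 648 bp over all 7517 listed higher regions. At 7 of them the region covered the start of 9 members with a promoter entry: H1-1, H2BC4, H2AC6, H3C4, H4C9, H2BC12, H4C11, H2AC15 and H2BC15. H4C3 and H2AC12 lay wholly inside listed regions. The widest (chr6:27144155-27148617) covered the start of H2BC12 and the whole of H2AC12, and the next (chr6:26122121-26126389) the starts of H2BC4 and H2AC6. The region of H3C4 (chr6:26195365-26197676) covered a start inside its span, whose promoter is printed above, and not the one it shares in position with H2AC7. The regions of H2BC5 (chr6:26171790-26173616) and H2BC17 (chr6:27894382-27896229) lay past the gene and covered no part of it. These regions largely begin and end where peaks of the same libraries do, so their widths are not independent of the peak lengths.

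Lengths under peaks showed the same genes list by list. At H4C3 peaks covered 629 bp in untreated siGl3, 1423 bp in untreated siOrc6, 613 bp in H2O2 siGl3 and 1079 bp in H2O2 siOrc6. The 2 siOrc6 lists were longer than the 2 siGl3 lists there. At H4C11 the lengths were 1330 bp, 1604 bp, 1216 bp and 1218 bp in that order, so the longer cover was seen in untreated siOrc6 alone. Within the higher region of H2AC15 and H2BC15 (chr6:27836783-27840063) there were 2 peaks over 1619 bp in untreated siGl3 and 4 peaks over 2698 bp in untreated siOrc6, and 1801 bp and 2003 bp with H2O2. For H2BC12 and H4C9 the region chr6:27139092-27140293 was under peaks for 1071 bp, 1202 bp, 542 bp and 1080 bp. H2O2 siGl3 was the shortest list at H4C9.

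With H2O2, 3 members (5.17%) lay at 2 regions listed as higher in siOrc6, against 2.13% of all protein-coding genes. Among genes of at most 1000 bp, 2 of 51 members (3.92%) and 2 of all 524 genes (0.382%), members included, lay at a higher region. No member lay at a lower one, against 3.13% of all genes and 0.191% of the 524 genes of at most 1000 bp. H2BC13 and H2AC13, a head-to-head pair, shared 1 of the higher regions (chr6:27806648-27808577), and H3C4 lay at the other (chr6:26196744-26197644). Peaks at the pair covered 917 bp in untreated siGl3, 2131 bp in untreated siOrc6, 841 bp in H2O2 siGl3 and 1790 bp in H2O2 siOrc6. Both siOrc6 lists were longer than both siGl3 lists, yet only the contrast with H2O2 is in the deposited lists. H3C4 was listed in both contrasts, and its region there was under peaks for 761 bp, 1028 bp, 558 bp and 900 bp in the same order. Whether the response to Orc6 depletion differs between treatments at these genes was not tested, as the lists hold no value per library.

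Peak length differed in 1 direction at nearly every region of the members. Of the 35 merged regions with a peak in both untreated lists, 34 (97.1%) were under peaks for longer in siOrc6 than in siGl3, against 53.9% of all such regions in the genome. The median difference was 209 bp at members and 5.5 bp over all regions. The exception was a short region inside H2BC4 (263 bp against 240 bp). The largest differences were in the regions of H1-2 (1247 bp), H2BC13 and H2AC13 (1214 bp) and H2AC14 and H2BC14 (957 bp). That of H1-2 lay almost wholly beyond 1 kb from the gene. Wide regions are more often longer in siOrc6 in general. Among regions of at least 1000 bp the counts were 21 of 21 at members and 67.7% over all.

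**Figure D4:**
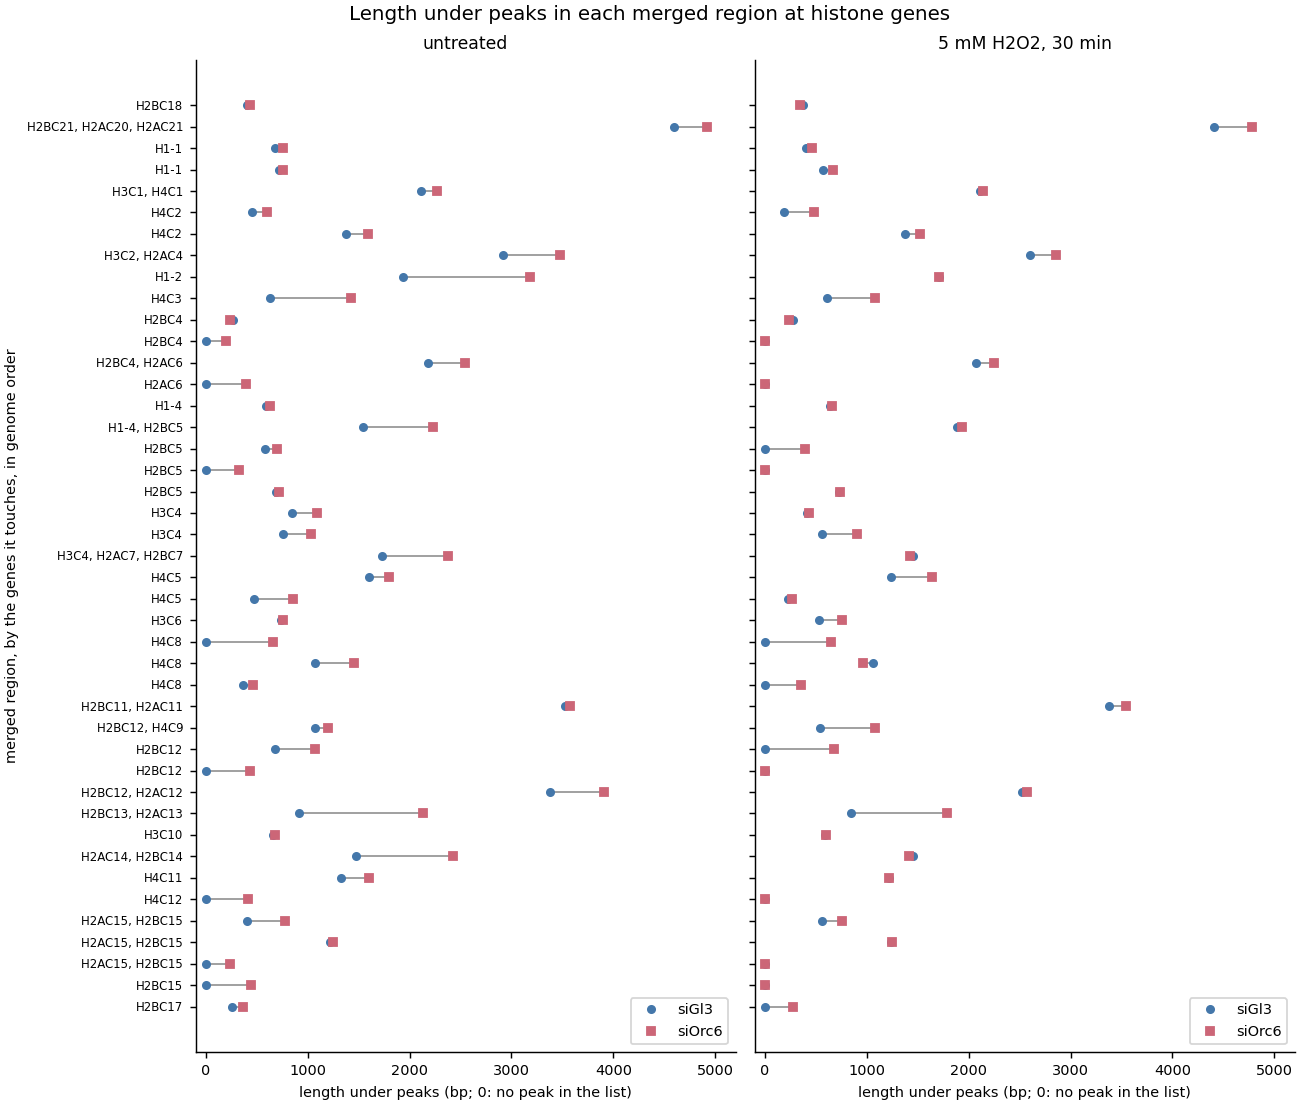
Length under peaks in bp (x axis) in siGl3 (circles) and siOrc6 (squares) for each of the 43 merged regions at members (y axis), untreated on the left and with H2O2 on the right; a symbol at 0 means no peak in that list. In the untreated panel the square lies to the right of the circle at 34 of the 35 regions with both, and most pairs lie closer together with H2O2.

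The pattern was not limited to regions that the authors listed as higher. At regions outside that list, 21 of 22 were longer in untreated siOrc6, with a median difference of 203 bp, and at listed ones 13 of 13 were, with a median of 242 bp. By merged region, every subcluster with a peak showed it. The counts were 2 of 2 regions in subcluster 1, 21 of 22 in subcluster 3, 4 of 4 in subcluster 4 and 7 of 7 in subcluster 5. By gene window, subcluster 1 did not show it. Of its 4 genes with a peak, 1 had longer cover in untreated siOrc6 and 1 shorter, with a median difference of 0 bp. A further 7 regions at members appear in 1 list only, and all 7 were in untreated siOrc6, against 33.6% of all 20358 single-list regions. They lay at H2BC4, H2AC6, H2BC5, H2BC12, H4C12, H2AC15 with H2BC15, and H2BC15 alone. Of the merged regions of at least 1000 bp at members, 8 of 21 (38.1%) overlapped a listed higher region, against 7.64% of all of that width.

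Counted by gene, 33 of 37 members with a peak in either untreated list (89.2%) had more of their window under peaks in siOrc6, against 61.7% of all genes, with a median of 274 bp against 49 bp. The members' median was 0 bp over the gene span alone and 794 bp with flanks of 5 kb. Other groups of genes that are open in most cells came close to that count. Among cytosolic ribosomal protein genes 68 of 82 (82.9%) were longer, with a median of 171 bp, and among regulators of histone genes 14 of 17 were. Longer cover in untreated siOrc6 was thus shared by other gene groups, and this count does not set the histone genes apart from them. The lists as a whole covered 70.3 Mb in untreated siGl3 and 70.6 Mb in untreated siOrc6.

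With H2O2 the median difference between siRNAs over all members was smaller. Of 31 merged regions with a peak in both H2O2 lists, 25 (80.6%) were longer in siOrc6, against 55.2% of all, with a median difference of 50 bp. By gene, 28 of 36 were longer, against 61.5% of all genes, with a median of 105.5 bp. That median was 0 bp over the gene span alone and 297 bp with flanks of 5 kb. The drop was not seen in every group of members. Medians by gene, untreated and then with H2O2, were 145 bp and 225 bp for H3 genes. They were 248 bp and 403 bp for H4 genes, and 131 bp and 149 bp in subcluster 4. The medians of H1, H2A and H2B genes and of subclusters 3 and 5 were smaller with H2O2, and that of subcluster 1 was 0 bp in both. In the merged region of H1-2, which differed most between the untreated lists, the lengths with H2O2 were 1706 bp and 1704 bp. At H2BC13 and H2AC13 they were 841 bp in siGl3 and 1790 bp in siOrc6. The change in the difference itself was not tested.

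**Figure D5:**
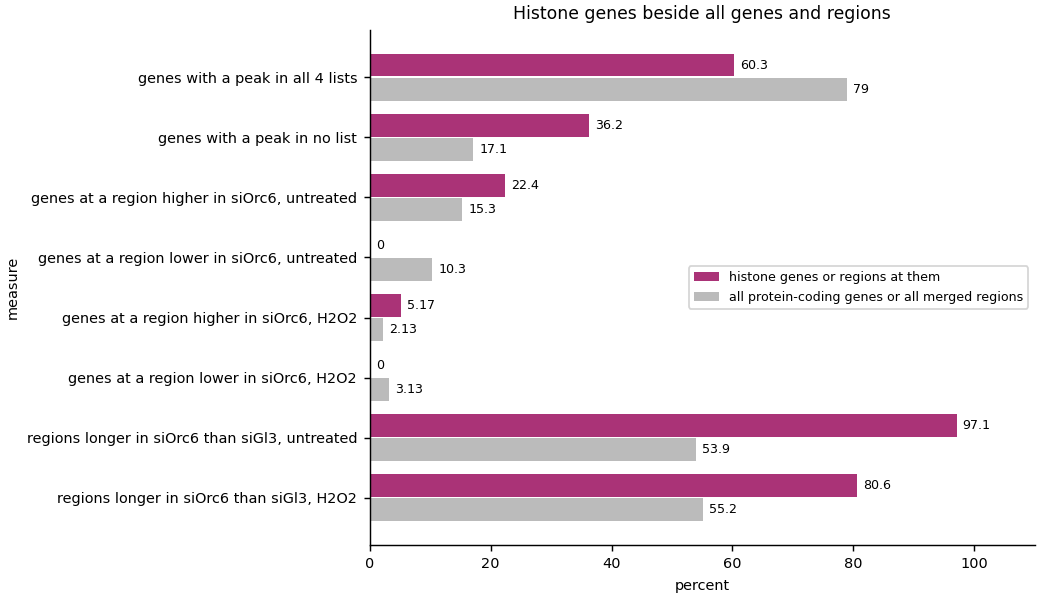
Percent of histone genes, or of merged regions at them (purple), and of all protein-coding genes or all merged regions (grey) for 8 measures: genes with a peak in all 4 lists or in none, genes at higher or lower regions without and with H2O2, and regions longer in siOrc6 without and with H2O2. Regions longer in untreated siOrc6 stand at 97.1 against 53.9, and genes with a peak in no list at 36.2 against 17.1.

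After H2O2 the members' peaks were mostly shorter than in untreated cells of the same siRNA. In siOrc6, 33 of 36 merged regions were shorter, against 66.2% of all, with a median difference of -135.5 bp against -29 bp. In siGl3, 23 of 31 were shorter, against 66.6% of all, with a median of -114 bp against -30 bp. By gene, 33 of 37 members were shorter in siOrc6 (against 65.7% of all genes, median -338 bp) and 27 of 36 in siGl3 (against 64.4%, median -102.5 bp). The 4 contrasts of length share lists, so they are not independent: a long peak in untreated siOrc6 lengthens the contrast with siGl3 and shortens the one with H2O2. At H2BC12 and H2AC12 the shared region went from 3905 bp untreated to 2577 bp with H2O2 in siOrc6, and from 3374 bp to 2527 bp in siGl3. At H1-4 and H2BC5 the siGl3 list went the other way, from 1544 bp untreated to 1881 bp with H2O2. The H2O2 lists also cover less of the genome, 62.8 Mb in each.

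Regions listed in all but 1 of the lists were longest in untreated siOrc6. The H2BC17 region was under peaks for 260 bp in untreated siGl3, 368 bp in untreated siOrc6 and 279 bp in H2O2 siOrc6, with no peak in H2O2 siGl3. Regions inside H2BC5 (579 bp, 697 bp and 397 bp), at H4C8 (359 bp, 464 bp and 350 bp) and inside H2BC12 (678 bp, 1073 bp and 675 bp) were likewise listed in all but H2O2 siGl3. These peaks stood at percentiles between 12.4 and 52.7 of their lists. A further region beside H4C8 was listed in both siOrc6 lists only (656 bp and 652 bp). None of the 43 regions at members was missing from untreated siOrc6.

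All 17 regulators and processing factors of histone genes had peaks in all 4 lists, and none lay at a changed region; 15.3% of all genes lay at a higher one in untreated cells. NPAT stood at percentiles between 97.4 and 98.3, and SLBP, which binds the stem-loop of histone mRNA, at a mean of 92.2 over the lists. HINFP stood between 92.9 and 93.4 and POU2F1 between 93.3 and 95.1. Of 13 histone genes outside these clusters, mostly replication-independent variants, 12 had peaks in all 4 lists. In untreated cells 4 of the 13 (30.8%) lay at a higher region, against 22.4% of the members. Of 84 ribosomal protein genes, 82 had peaks in all 4 lists and 7 (8.33%) lay at a higher region in untreated cells.

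Other replication-dependent histone genes, which are no members, mostly lacked peaks. Of 11 such genes examined, 10 (90.9%) had none, against 17.1% of all protein-coding genes and 77.1% of those of at most 1000 bp. H4C15, with an annotated span of 16753 bp, had a peak in all 4 lists, the strongest at percentiles between 34.4 and 42.5. Repeated stretches were not searched in the promoters of these 11 genes, so their missing peaks are uncertain. Between the first and the last member on chromosome 6, 15 of 20 other protein-coding genes had peaks in all 4 lists, and 3 of them (TRIM38, BTN3A1 and BTN3A3) lay at higher regions in untreated cells. None of these 20 lay at a lower region.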

How the data were processed

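ATAC-seq libraries of 4 conditions, 2 for each, were deposited as 1 peak list for each condition and 4 lists of changed regions. Per the submitters' processing notes, the tools were edgeR, Genrich, deepTools, Bowtie2, Picard, SAMtools and bcl2fastq 2.20, with build hg38. The roles and thresholds of these tools, and any shift of read ends for the transposase, are not given in the sources used here. Of the deposited peak columns, column 5 is a display score, column 7 the peak signal of the authors' caller, and columns 8 and 9 its −log10 p-value and −log10 q-value. The deposited changed regions carry positions and a serial number only, and start 1 bp before the peaks they match.

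Only peaks of chromosomes 1 to 22 and X entered. A member's window was its RefSeq span (GRCh38.p14) with 1 kb on each side, and 1 bp of overlap counted. Column 7 was turned into a percentile within its list. Peaks of the 4 lists that overlapped or touched were joined into merged regions. No depth is known and no p-value was computed, since the lists hold no value per library.

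Named genes were the members at a changed region, those with a peak in no list or only some lists, the strongest and weakest of each subcluster, and those sharing a region over 2 kb. Other names were chosen after their values were seen. Some items of the gene lists are not reported here. The members and gene lists were chosen with earlier results of these data known. Comparisons by merged region, by regions of at least 1000 bp, by short genes and by repeated promoter stretches were added after seeing the data. The overlap functions were tested on simulated intervals. Alternatives were no flank, flanks of 5 kb, 1 kb around gene starts, stronger peaks and overlap by most of the peak. Computations used pandas 2.3.3, numpy 2.4.6, matplotlib 3.10.9 and scipy 1.17.1 in Python 3.11.15.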

Additional observations from a re-analysis of the deposited data

How the results depend on the processing

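The 13 values of the comparisons were recomputed under 5 other settings, and 5 values in 1 added setting each; 52 of 70 stayed within 1.5 times and kept their sign, 18 did not, and none turned in direction. The count of members with a peak in all 4 lists was 31 to 43, and no setting put a member at a lower region. With flanks of 5 kb, 20 members lay at a region higher in siOrc6 without H2O2 and 6 with H2O2. The difference in covered length for siOrc6 minus siGl3 without H2O2 became 794 bp with flanks of 5 kb. For siOrc6 minus siGl3 with H2O2 it became 297 bp with flanks of 5 kb, 49 bp around gene starts, 25 bp over stronger peaks, 60.5 bp with most of the peak in the window and 50 bp over merged regions. For H2O2 minus untreated it became -186 bp in siGl3 and -628 bp in siOrc6 with flanks of 5 kb, -40.5 bp and -155 bp around gene starts, -22.5 bp in siGl3 over stronger peaks and -135.5 bp in siOrc6 over merged regions. Over the gene span alone all 4 differences had a median of 0 bp; the cause was not tested. No paired analysis was possible because each condition has 1 list for both libraries, and for the same reason no library could be left out. Read depth is unknown, so a missing peak is a peak not listed, not a closed site.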
